A study of Mus musculus with 32 samples.

Results

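Upf3b, Nkap, Cstf2 and Gpkow are 4 X-linked genes of messenger RNA processing and decay that were expressed from both X chromosomes in most groups of a mouse XEN cell study. They were taken by name, 4 of 1006 X-linked genes listed, having been chosen by their expression from the inactive X, as level and as share, in these same data. Their levels and shares are therefore a description, with no test. All 4 are listed in each of the 4 deposited tables and passed the filter on low values in each, which left 270, 261, 247 and 277 genes.

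XEN cells are stem cell lines of the extraembryonic endoderm, and all of those used here are labelled 129S1/SvImj X JF1/Ms. The tables give each gene's expression from the active X, called Xa, and from the inactive X, called Xi. The groups were 4 XistpA, 2 XRR_KO, 3 XRRa_KO and 3 WT samples, 2 samples each of XRRb_XiKO, XRRb_XaKO, XRRc_XiKO and XRRc_XaKO, 4 samples each of Rad21 degron cells with dTAG or DMSO, and 2 samples each of Ctcf degron cells with dTAG or DMSO. The labels name these alterations without describing them. The XRR_KO samples are 2 clones, and the Rad21 degron samples of each treatment come from 2 clones. All Rad21 groups carry the Rad21 degron and all Ctcf groups the Ctcf degron, with DMSO or dTAG for 48 h in the Ctcf groups and no time given for the Rad21 groups. dTAG compounds direct a tagged protein to the proteasome, and DMSO is the solvent control. For every gene and allele the tables hold 1 merged value per group in FPKM, a read count scaled by transcript length and library size. No difference below has a replicate check, an SD or a p-value, and sequencing depth is unknown.

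In female mouse cells Xist RNA coats 1 of the X chromosomes and most of its genes are silenced, while a minority, the escape genes, continue to be transcribed from it. In extraembryonic lineages of the mouse the silenced X is the paternal one. The 4 members act along the life of a messenger RNA. Gpkow encodes a G-patch and KOW domain protein of the spliceosome, and Nkap encodes a nuclear RNA-binding protein with roles in splicing and in transcriptional repression. Cstf2 encodes the RNA-binding subunit of the cleavage stimulation factor, which acts in forming the 3' end of messenger RNA. Upf3b encodes a factor that links exon junction complexes to nonsense-mediated decay, the pathway that removes transcripts with premature stop codons.

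The promoters of the members are shown because all 4 genes were expressed from Xi and their Xi shares were higher together in some groups. The sequences run from 250 bases before to 50 bases after the gene's start, are written in the direction of the gene and come from RefSeq on GRCm38.p6, another build than the authors' mm9. All 4 members were matched by symbol. Capitals mark matches to a YY1 motif (AANATGGCG), a ZNF143 motif (CCCAGNATG) and a CRE core (TGACG), on either strand. The motifs were chosen after the sequences were seen. The regions are chrX:37110273-37110572 on the minus strand for Upf3b, and chrX:37126513-37126812, chrX:134058926-134059225 and chrX:7696884-7697183 on the plus strand for Nkap, Cstf2 and Gpkow.
Upf3b: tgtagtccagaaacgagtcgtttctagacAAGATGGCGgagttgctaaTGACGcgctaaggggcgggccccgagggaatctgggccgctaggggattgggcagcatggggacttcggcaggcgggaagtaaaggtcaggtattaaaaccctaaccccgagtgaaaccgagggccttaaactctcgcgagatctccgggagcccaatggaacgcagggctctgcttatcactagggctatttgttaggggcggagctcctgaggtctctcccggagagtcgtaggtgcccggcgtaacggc
Nkap: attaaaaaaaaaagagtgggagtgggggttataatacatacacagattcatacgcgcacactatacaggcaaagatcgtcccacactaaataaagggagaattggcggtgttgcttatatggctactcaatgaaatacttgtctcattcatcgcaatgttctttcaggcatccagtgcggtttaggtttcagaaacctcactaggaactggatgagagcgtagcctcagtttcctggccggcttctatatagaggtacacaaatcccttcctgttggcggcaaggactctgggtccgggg
Cstf2: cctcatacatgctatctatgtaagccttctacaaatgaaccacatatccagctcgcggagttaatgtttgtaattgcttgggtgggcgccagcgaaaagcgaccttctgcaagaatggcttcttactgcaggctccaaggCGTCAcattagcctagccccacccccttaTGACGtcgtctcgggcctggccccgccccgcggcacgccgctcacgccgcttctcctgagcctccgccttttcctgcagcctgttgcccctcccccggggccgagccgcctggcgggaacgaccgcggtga
Gpkow: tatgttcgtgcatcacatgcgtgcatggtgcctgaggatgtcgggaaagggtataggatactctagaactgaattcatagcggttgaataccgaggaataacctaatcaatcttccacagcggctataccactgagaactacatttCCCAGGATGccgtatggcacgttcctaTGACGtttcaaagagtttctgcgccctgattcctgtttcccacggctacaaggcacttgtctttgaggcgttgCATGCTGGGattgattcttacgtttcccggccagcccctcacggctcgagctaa

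The promoters were not alike. Upf3b and Cstf2 had 22 and 24 CpG dinucleotides in 300 bases, Gpkow had 16 and Nkap had 10, against a median of 16 over 292 promoters of genes passing the filter in the WT table. The YY1 motif was in the Upf3b promoter, from base -221 to -213 counted from the start as 0. It was in 2.38% of 32851 mouse promoters and in 3.27% of the 1223 on the X. The ZNF143 motif was in the Gpkow promoter at 2 places, from -104 to -96 and across the start from -4 to 4. It was in 2.04% of all promoters and in 2.70% of those on the X. The CRE core was in the promoters of 3 members, Upf3b, Cstf2 and Gpkow. It was in 20.8% of all promoters and in 19.1% of those on the X. No 2 of these matches overlapped, and a match is a description of letters, not a bound site.

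Xist on Xi was lowest in XistpA and XRR_KO among the groups of the WT table. It was listed at 0 in XistpA, at 1.18 FPKM in XRR_KO, 7.86 FPKM in XRRa_KO and 15.5 FPKM in WT. It lay between 6.72 and 10.9 FPKM in the XRRb and XRRc groups, at 35.6 FPKM with dTAG and 27.96 FPKM with DMSO in Rad21 degron cells, and at 18.7 and 18.6 FPKM with dTAG and DMSO in Ctcf degron cells. These levels compare within a table only. Tsix, which overlaps Xist on the opposite strand, was listed at 0 on Xi in XistpA and XRR_KO, at 16.5 FPKM in XRRa_KO and at 31.2 FPKM in WT, and without strand the reads of this pair cannot be told apart. Gata4, Gata6, Sox17, Sox7, Pdgfra, Dab2 and Foxa2, the endoderm markers that would check the cell type, and Rad21 and Ctcf themselves are not X-linked and were not analysed here.

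In WT cells all 4 members were expressed from Xi below their Xa level. Gpkow had 4.53 FPKM on Xi beside 6.47 FPKM on Xa, an Xi share of 41.2% of the Xa plus Xi FPKM. Nkap had 3.48 FPKM on Xi beside 6.21 FPKM on Xa, so 35.9% came from Xi. Cstf2 was the highest of them on both alleles, with 6.77 FPKM on Xi, 14.7 FPKM on Xa and a share of 31.5%. Upf3b, with 4.37 FPKM on Xi beside 11.8 FPKM on Xa, had the lowest share of them, 27.0%. Ordered by share among 270 genes, Gpkow stood 7th, Nkap 11th, Cstf2 18th and Upf3b 23rd. By Xa level they lay in the middle of the range, between the 43.7th and the 65.9th percentile of the genes passing the filter. In WT, 33 of 270 genes reached an Xi share of 10% (12.2%). The members' shares chose them, so nothing is read from that background.

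**Figure D1:**
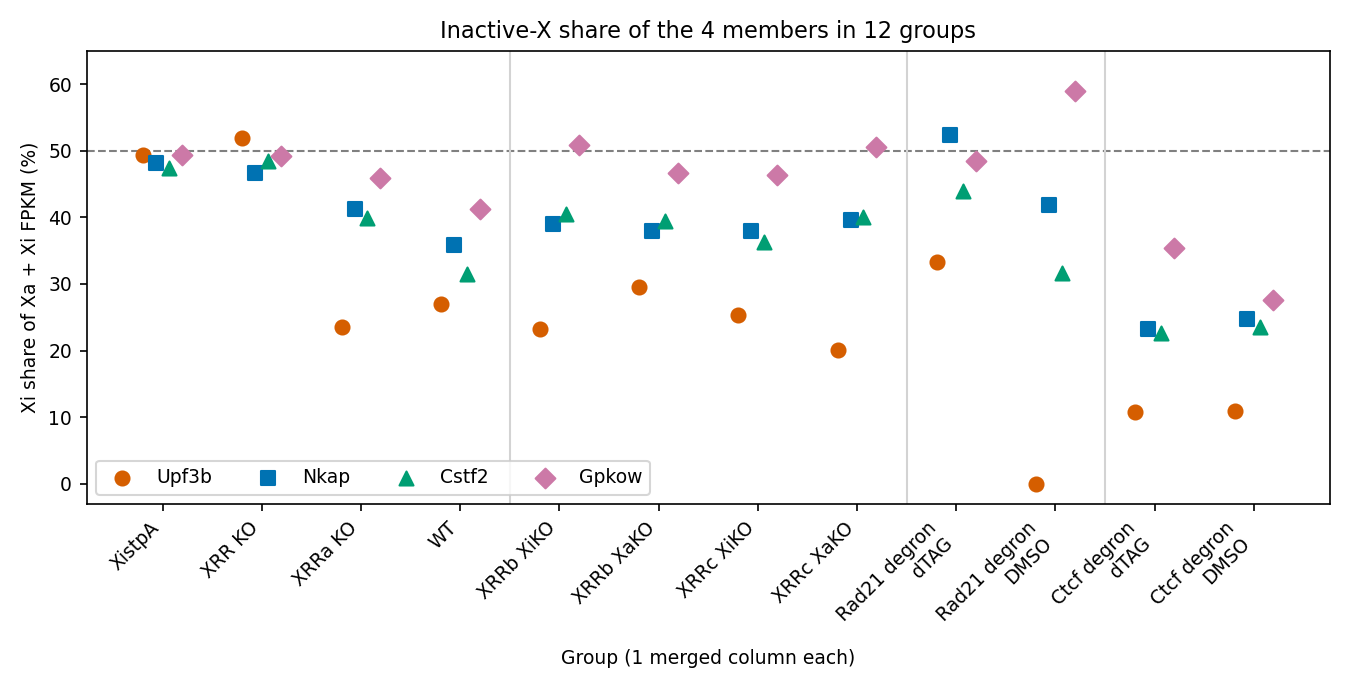
Xi share of Xa plus Xi FPKM (%, vertical axis) of Upf3b, Nkap, Cstf2 and Gpkow in 12 groups, each point being 1 merged column, with grey lines between the 4 deposited tables and a dashed line at 50%. The members lie within 1.93 percentage points of each other in XistpA and spread over 14.2 points in WT, and Upf3b is the lowest in 10 of 12 groups.

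Among the members the order of shares was largely stable. Gpkow had the highest share in 10 of 12 groups, and the exceptions were XRR_KO, led by Upf3b, and Rad21 degron with dTAG, led by Nkap. Upf3b had the lowest share in 10 of 12 groups, with XistpA and XRR_KO as the exceptions. Nkap and Cstf2 lay close together and changed places, Nkap being above Cstf2 in 8 groups. Neither stood above the other beyond the spread between groups, since Cstf2 alone had 31.5% in WT, 39.4% in XRRb_XaKO and 40.02% in XRRc_XaKO. Over the 12 groups the median share was 47.6% for Gpkow (range 27.6% to 58.97%), 39.6% for Cstf2 (22.7% to 48.4%), 39.3% for Nkap (23.3% to 52.4%) and 24.5% for Upf3b (0 to 51.9%). In 47 of 48 pairs of member and group the share was 10% or more, the exception being Upf3b in Rad21 degron cells with DMSO. In 5 pairs it was above 50%. Over all genes passing the filter, the part at 10% or more was 20.4% in XistpA, 21.6% in XRR_KO, 15.9% in XRRa_KO and 12.2% in WT. It was 14.2% in XRRb_XiKO, 13.4% in XRRb_XaKO, 12.3% in XRRc_XiKO and 11.5% in XRRc_XaKO, and in the degron cells 15.3% and 13.5% for Rad21 dTAG and DMSO, and 13% and 13.5% for Ctcf dTAG and DMSO.

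XistpA cells were compared with WT cells. Xist was listed at 0 on Xi in XistpA, and all 4 members came near equal expression from both X chromosomes. Upf3b had 11.8 FPKM on Xi in XistpA and 4.37 FPKM in WT, a log2(FPKM + 0.5) difference of 1.34. Its Xi share was 49.4% in XistpA and 27.0% in WT. Upf3b was the member that rose, taking a difference of 1 or more as the rule for "rose" and "fell" (1 of 4 members, against 12.2% of 270 genes, and 1.48% that fell). Cstf2 had 14.0 FPKM on Xi in XistpA and 6.77 FPKM in WT (0.99), just inside the rule, with shares of 47.5% and 31.5%. Gpkow had 8.70 FPKM on Xi in XistpA and 4.53 FPKM in WT (0.87), with shares of 49.4% and 41.2%. Nkap had 6.64 FPKM on Xi in XistpA and 3.48 FPKM in WT (0.84), with shares of 48.2% and 35.9%. In such bulk samples a higher level in each cell and more cells expressing the Xi copy cannot be told apart. In ratio, Xi FPKM in XistpA was between 1.91 and 2.70 times that in WT.

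The Xa levels of the members in XistpA and WT differed by less than the rule, with log2 differences of 0.04 for Upf3b, 0.07 for Cstf2, 0.19 for Nkap and 0.43 for Gpkow. On Xa, 1.11% of the 270 genes rose and 3.33% fell, and none of the members did either. The members were not alone in this. The 27 other genes at 10% or above in WT, with Xist and Tsix left out, had a median share of 47.9% in XistpA and 30.1% in WT, and the members' medians were 48.8% and 33.7%. The share was higher in XistpA for 21 of those 27 genes and for 4 of 4 members. The gain of Upf3b, 22.4 percentage points, was exceeded by 4 of the 27, and that of Gpkow, 8.19 points, by 20. Ordered by gain the members ran Upf3b with 22.4 points, Cstf2 with 16.0, Nkap with 12.3 and Gpkow with 8.19, the reverse of their order by share in WT, a value that is itself part of the gain.

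XRR_KO cells, compared with the same WT column, had shares much like those of XistpA. Upf3b had 11.4 FPKM on Xi in XRR_KO and 4.37 FPKM in WT (log2 difference 1.29), the 1 member of 4 that rose, against 15.9% of 270 genes. Its share was 51.9% in XRR_KO and 27.0% in WT, the highest of the members in XRR_KO. Cstf2 had 12.6 FPKM on Xi in XRR_KO and 6.77 FPKM in WT (0.85), Nkap had 5.29 and 3.48 FPKM (0.54), and Gpkow had 6.62 and 4.53 FPKM (0.50). Shares in XRR_KO were 48.4% for Cstf2, 46.7% for Nkap and 49.3% for Gpkow. On Xa the members' differences ran between -0.15 for Upf3b and 0.07 for Gpkow, while the median Xa difference of all 270 genes was -0.19. Xa fell for 3.7% and rose for 1.11% of the genes (10 and 3, against 7 and 6 at equal median Xa FPKM and 4 and 7 when centred), and for none of the members. When columns were scaled to equal median Xa FPKM or differences were centred on the median Xa difference, Cstf2 also passed the rule on Xi, at 1.00 and 1.04. Those 27 other genes had a median share of 46.9% in XRR_KO and 30.1% in WT.

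By share, XRRa_KO cells stood between XRR_KO and WT for 3 members and not for Upf3b. Cstf2 had 10.2 FPKM on Xi in XRRa_KO and 6.77 FPKM in WT (log2 difference 0.55), Gpkow had 6.70 and 4.53 FPKM (0.52), and Nkap had 4.12 and 3.48 FPKM (0.22). Their shares were 39.9%, 45.9% and 41.2% in XRRa_KO, each above WT by 4.71 to 8.36 points. Upf3b had 4.63 FPKM on Xi in XRRa_KO and 4.37 FPKM in WT (0.08). Its share was 23.6% in XRRa_KO, a difference of -3.41 points from WT. On Xa Upf3b had 14.996 FPKM in XRRa_KO and 11.8094 FPKM in WT (0.33). Its lower share thus went with a higher Xa level and not with a lower Xi level. Of the same 27 other genes, 25 had a larger gain than Upf3b. The share was higher in XRRa_KO than in WT for 23 of the 27 and lower for 4. Their median share was 39.8% in XRRa_KO and 30.1% in WT. No member rose or fell on either allele. Over 270 genes 5.93% rose on Xi and 1.11% fell there, with 0.37% each way on Xa. Of the 3 groups set against WT, Upf3b had a higher share in XistpA and XRR_KO, the groups with Xist at 0 and 1.18 FPKM on Xi, and a lower one in XRRa_KO, with Xist at 7.86 FPKM. All 3 comparisons share the WT column, and what part of these differences comes from that column cannot be told apart here. Shares in the XRRb and XRRc groups were 36.3% to 40.5% for Cstf2, 46.4% to 50.8% for Gpkow and 37.9% to 39.6% for Nkap. Upf3b had 20.2% to 29.6% there.

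**Figure D2:**
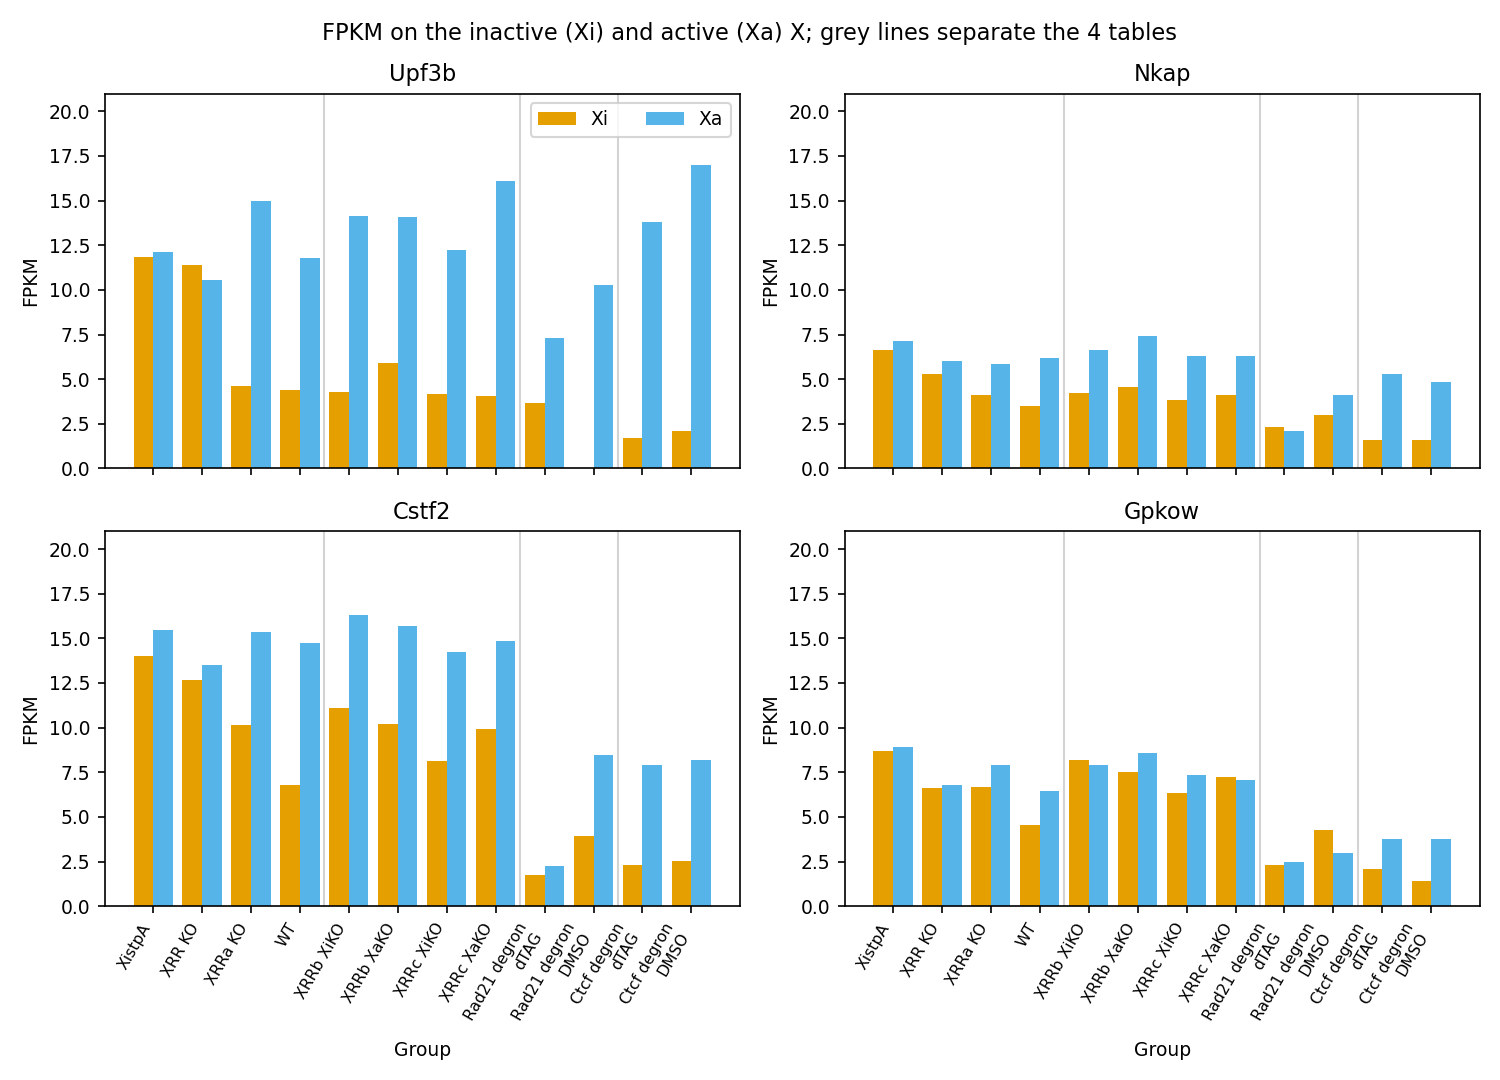
FPKM (vertical axis) on Xi (orange) and Xa (blue) for each member in the 12 groups, each bar being 1 merged column, with grey lines between the 4 deposited tables, whose levels were normalised separately. Xi and Xa bars are nearly equal in XistpA and XRR_KO for all 4 members, and Upf3b has no Xi bar in Rad21 degron cells with DMSO.

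The XRRb and XRRc lines were compared as XiKO against XaKO. No member rose or fell on either allele, and Upf3b had the widest differences in share. Over 261 genes, 1.92% rose on Xi in XRRb and 0% fell, and in XRRc 0.766% rose on Xi and 1.53% fell. The Xa values were 0.766% up and 2.3% down in XRRb, and 1.15% each way in XRRc. Upf3b had 4.30 FPKM on Xi in XRRb_XiKO and 5.92 FPKM in XRRb_XaKO (log2 difference -0.42), with shares of 23.3% and 29.6%. All 29 other genes at 10% or above in XRRb_XaKO had a larger gain than this difference of -6.30 points. In XRRc the Xi levels of Upf3b were 4.15 FPKM in XiKO and 4.06 FPKM in XaKO (0.03), with shares of 25.4% and 20.2%. On Xa Upf3b had 12.2 FPKM in XRRc_XiKO and 16.1 FPKM in XRRc_XaKO (-0.38), and 14.1 FPKM in both XRRb groups (0.01). The XRRb and XRRc differences in share thus had opposite signs, but the larger difference in level was on Xi in XRRb and on Xa in XRRc. Cstf2 had 11.1 FPKM on Xi in XRRb_XiKO and 10.2 FPKM in XRRb_XaKO (0.12), and 8.10 and 9.90 FPKM in XRRc_XiKO and XRRc_XaKO (-0.27). Nkap lay between 3.86 and 4.54 FPKM on Xi in the 4 groups, with shares of 37.9% to 39.6%. Gpkow had 8.17 FPKM on Xi in XRRb_XiKO and 7.53 FPKM in XRRb_XaKO (0.11), and 6.35 and 7.21 FPKM in XRRc_XiKO and XRRc_XaKO (-0.17). Gpkow was at or above equal expression in 2 of these groups, with 50.8% in XRRb_XiKO and 50.5% in XRRc_XaKO. The median share of the members was 39.8% in XRRb_XiKO and 38.7% in XRRb_XaKO, and 37.1% in XRRc_XiKO and 39.8% in XRRc_XaKO.

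Rad21 is a subunit of cohesin, the complex that extrudes chromatin loops, and Rad21 degron cells were compared as dTAG against DMSO. Upf3b was listed at 3.67 FPKM on Xi with dTAG and at 0 with DMSO, and counted as a rise by the rule (1 of 4 members, against 4.05% of 247 genes). With no value above 0 in DMSO no fold is given, and a listed 0 can be a failed estimate. Upf3b had at least 1.68 FPKM on Xi in each of the other 11 groups, although the tables were normalised separately. On Xa it had 7.33 FPKM with dTAG and 10.3 FPKM with DMSO (log2 difference -0.46). The Xi share of Upf3b was 33.3% with dTAG.

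As deposited, the other members had lower FPKM with dTAG on both alleles, while at equal median Xa FPKM Nkap on Xi and Gpkow on Xa turned to slightly higher, at 0.05 and 0.12. Cstf2 had 2.22 FPKM on Xa with dTAG and 8.48 FPKM with DMSO (-1.72), the 1 member that fell on Xa, where 15% of 247 genes fell and 6.48% rose. On Xi it had 1.74 FPKM with dTAG and 3.91 FPKM with DMSO (-0.98), where 3.24% of genes fell, and its share was 43.9% with dTAG and 31.6% with DMSO. Nkap had 2.32 FPKM on Xi with dTAG and 2.97 FPKM with DMSO (-0.30), and 2.11 and 4.13 FPKM on Xa (-0.83). Its share was 52.4% with dTAG and 41.8% with DMSO. Gpkow went the other way in share, with 48.4% with dTAG and 58.97% with DMSO, and had 2.31 FPKM on Xi with dTAG and 4.28 FPKM with DMSO (-0.77). Of the 28 other genes at 10% or above with DMSO, 22 had a higher share with dTAG and 5 a lower one. Their median share was 40.3% with dTAG and 28.1% with DMSO. The median Xa difference of all 247 genes was -0.26. At equal median Xa FPKM, 26 genes rose and 19 fell on Xa, against 16 and 37 as deposited, and the Xa difference of Cstf2 was -1.36. The same scaling gave 14 genes up and 5 down on Xi, against 10 and 8 as deposited.

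The Rad21 table holds values of low resolution. The ratio of Xi to Xa FPKM equalled a ratio of whole numbers up to 30, within a relative tolerance of 2e-05, for 6 of the 7 member values above 0 in that table. It did so for 0 of 16 in the WT table, 0 of 16 in the XRRb and XRRc table and 0 of 8 in the Ctcf table. Among all genes at a share of 10% or above with both alleles over 0, such ratios made up 63.2% in the Rad21 table, 4.35% in the WT table, 0.787% in the XRRb and XRRc table and 4.11% in the Ctcf table. All 4 member ratios with dTAG and 2 of 3 with DMSO were of this kind.

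Ctcf is the DNA-binding factor that positions cohesin loops, and Ctcf degron cells were compared in the same way after 48 h. The shares of Upf3b, Cstf2 and Nkap with dTAG were close to those with DMSO, and Gpkow had a higher share with dTAG. Upf3b had 1.68 FPKM on Xi with dTAG and 2.08 FPKM with DMSO (log2 difference -0.25), with shares of 10.9% in both. Cstf2 had 2.32 FPKM on Xi with dTAG and 2.53 FPKM with DMSO (-0.10), with shares of 22.7% and 23.6%. Neither gene passed the rule. Nkap had 1.61 and 1.60 FPKM (0.01), with shares of 23.3% and 24.7%. Gpkow had 2.06 FPKM on Xi with dTAG and 1.43 FPKM with DMSO (0.41), with shares of 35.4% and 27.6%. Gpkow was the member whose share was higher with dTAG, and 1 of the 31 other genes at 10% or above in DMSO gained more than its 7.82 points. On both alleles all 4 members stayed inside the rule. Of 277 genes 0.361% rose on Xi and the same percentage fell, while on Xa 5.42% were up and 0.722% down, with a median Xa difference of 0.23. The 31 other genes had a median share of 23.7% with dTAG and 26.6% with DMSO.

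**Figure D3:**
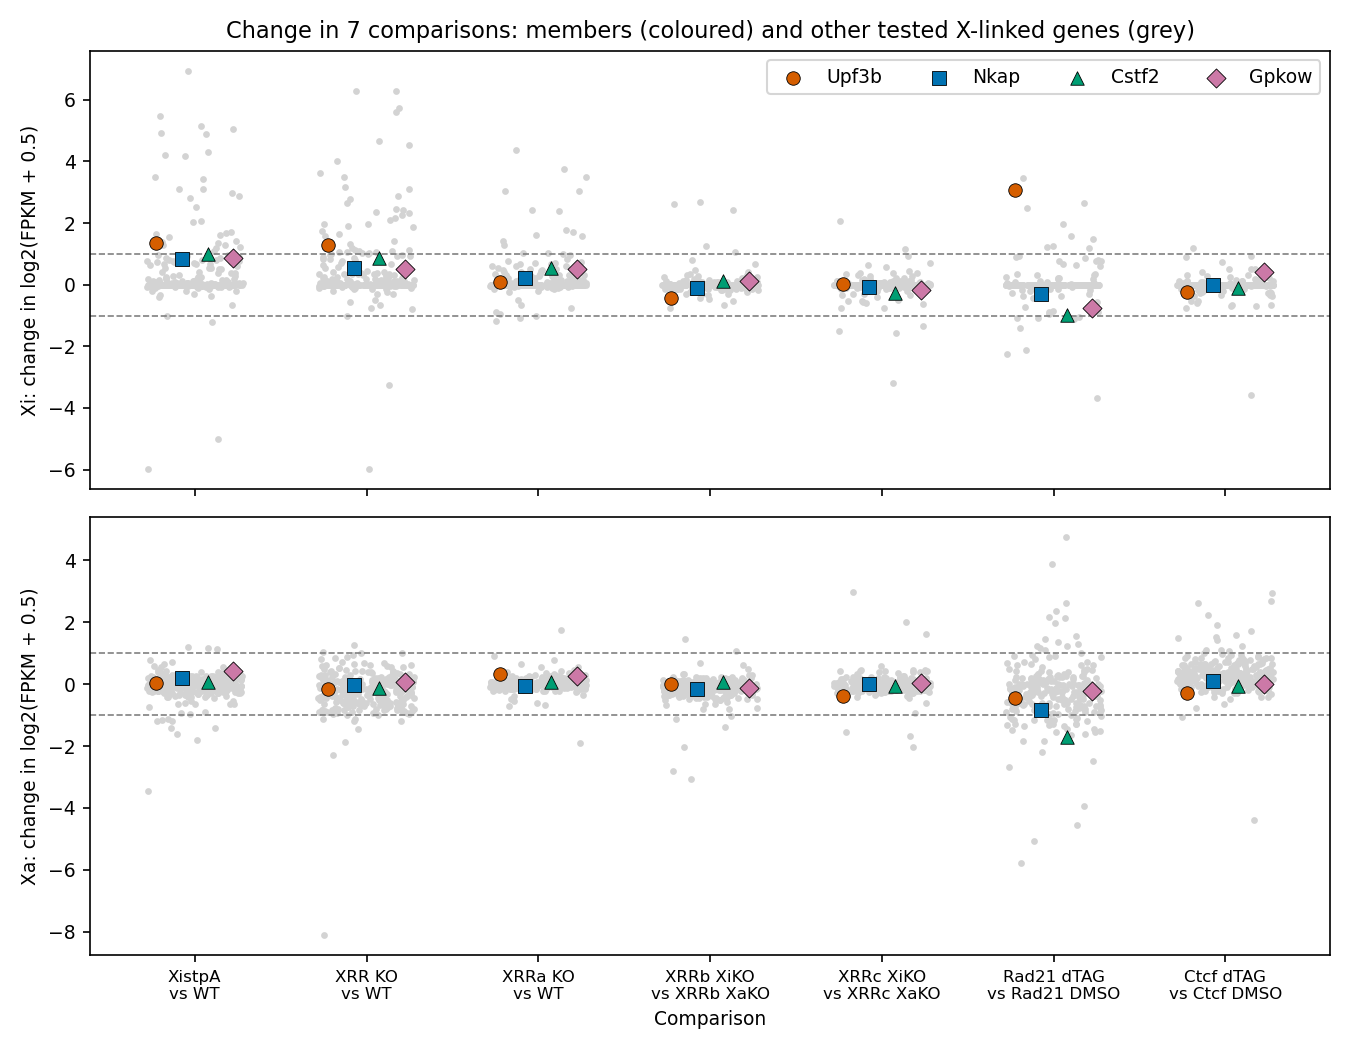
Difference in log2(FPKM + 0.5) on Xi (upper panel) and Xa (lower panel) in 7 comparisons, with the members as coloured symbols, each other gene passing the filter as a grey point, and dashed lines at the rule of 1. Upf3b lies above the rule on Xi in XistpA, XRR_KO and Rad21 dTAG, and Cstf2 below it on Xa in Rad21 dTAG.

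Across groups the Ctcf table held the lowest shares of 3 members, 23.3% for Nkap, 22.7% for Cstf2 and 27.6% for Gpkow, and of Upf3b apart from its listed 0. The shares of 5 comparison groups (WT, XRRb_XaKO, XRRc_XaKO, Rad21 DMSO and Ctcf DMSO) differed by 17.1 points for Nkap, 16.5 for Cstf2, 31.4 for Gpkow and 29.6 for Upf3b. The gains in XistpA were smaller than these ranges for all 4 members, and those in XRR_KO for 3, with 16.9 points for Cstf2 as the exception. The range of Upf3b holds its listed 0, and without that value it was 18.7 points, less than its gains of 22.4 points in XistpA and 24.9 points in XRR_KO. Within the WT table and the XRRb and XRRc table, the 6 groups other than XistpA and XRR_KO kept Nkap between 35.9% and 41.2%, and Upf3b between 20.2% and 29.6%. Nkap was 48.2% and 46.7%, and Upf3b 49.4% and 51.9%, in XistpA and XRR_KO, outside those ranges. The same held for Cstf2, with 47.5% and 48.4% against 31.5% to 40.5%. Gpkow, with 49.4% and 49.3%, lay inside its range of 41.2% to 50.8%. The degron groups are not part of these ranges. Nkap had 52.4% in Rad21 dTAG, above its shares in XistpA and XRR_KO. Upf3b and Cstf2 had at most 33.3% and 43.9% in the degron groups, below theirs.

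Over the 12 groups the Xi share of Nkap and Cstf2 had a Pearson r of 0.90, and that of Upf3b and Gpkow an r of 0.18. Without the 2 Rad21 groups, those values were 0.98 and 0.62 over 10 groups. Of 189 genes compared, the profiles most like that of Upf3b were those of Ndufa1 (r = 0.92), Yy2 (0.90) and 1810030O07Rik (0.88). For Nkap they were Tfe3 (0.92), Utp14a (0.91) and Rps4x (0.90). For Cstf2 they were Mmgt1 (0.97), Rps4x (0.95) and Yy2 (0.93). Gpkow was the least matched, with Cenpi (0.81), 5530601H04Rik (0.79) and Rps4x (0.73). All of these matches include the 2 Rad21 groups, with the listed 0 of Upf3b, and were not computed without them. These points share tables and columns, so the values describe likeness over these 12 columns only, and Rps4x, a ribosomal protein gene with processed copies elsewhere in the genome, has an uncertain value.

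The members lie in 3 places on the X, by the gene order of RefSeq on GRCm38.p6. Upf3b and Nkap are next to each other, with no listed gene between them, and Ndufa1, a respiratory complex I subunit gene, is the next gene passing the filter beyond Nkap. All 3 were expressed from Xi in 11 or 12 of the 12 groups. Ndufa1 had a share of 48.2% in XistpA, 44.3% in XRR_KO, 36.9% in XRRa_KO and 33.4% in WT. Its Xi level was 184 FPKM in XistpA, 100 FPKM in XRR_KO, 130 FPKM in XRRa_KO and 117 FPKM in WT. In XRR_KO Ndufa1 was thus lower than in WT on Xi, and on Xa it had 126 FPKM in XRR_KO and 232 FPKM in WT. Outside these 3 genes, Nkrf, Ube2a and C330007P06Rik on the Upf3b side were listed at 0 on Xi in WT. Pgrmc1, on the same side, had a share of 0.0553% in WT. On the Ndufa1 side Zbtb33, Lamp2 and Cul4b were listed at 0 on Xi in WT. Between Nkap and Zbtb33 there were 32 listed genes, Ndufa1 among them. In XRR_KO the lysosomal membrane gene Lamp2 had 5.70 FPKM on Xi, a share of 13.5%. It was 1.53 FPKM in XistpA, 0.339 FPKM in XRRa_KO and a listed 0 in WT. The share of Nkap minus that of Upf3b was -1.19 percentage points in XistpA, -5.13 in XRR_KO, 17.6 in XRRa_KO and 8.90 in WT, so their order differed between these groups.

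Cstf2 and Gpkow each have neighbours with Xi expression. On 1 side of Cstf2, Trmt2b had a share of 37.9% in XistpA and 8.18% in WT, Cenpi, a centromere protein gene, had 52.7% and 36.9%, and Drp2 had 11.5% and 5.19%. Their Xi levels in XistpA and WT were 1.09 and 0.191 FPKM for Trmt2b and 14.8 and 7.83 FPKM for Cenpi. Drp2 had 0.388 and 0.0578 FPKM. On the other side of Cstf2, Pcdh19, Diap2 and Zfp711 were listed at 0 on Xi in both. Chm had 16.0% in XistpA and 5.71% in WT, with 1.08 and 0.307 FPKM on Xi. Of the 8 genes passing the filter that lie nearest to Gpkow, 5 reached a share of 10% in WT, against 12.2% of all 270 genes. They were Clcn5, Ccdc22, Wdr45, Ccdc120 and Tfe3. Between Gpkow and Clcn5 there were 16 listed genes. Wdr45, directly next to Gpkow, had 32.7% in XistpA and 40.5% in WT, and Ccdc22 had 6.72% and 20.0%. Plp2 and Praf2, also within this stretch, were listed at 0 on Xi in WT, beside 236 and 53.6 FPKM on Xa. Of the 24 neighbours of all members, each counted once, 9 reached a share of 10% in XistpA and 7 in WT, and 12 were listed at 0 on Xi in WT. Over all genes passing the filter, 20.4% reached that share in XistpA and 12.2% in WT. Of all 270 genes, 178 were listed at 0 on Xi in WT.

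**Figure D4:**
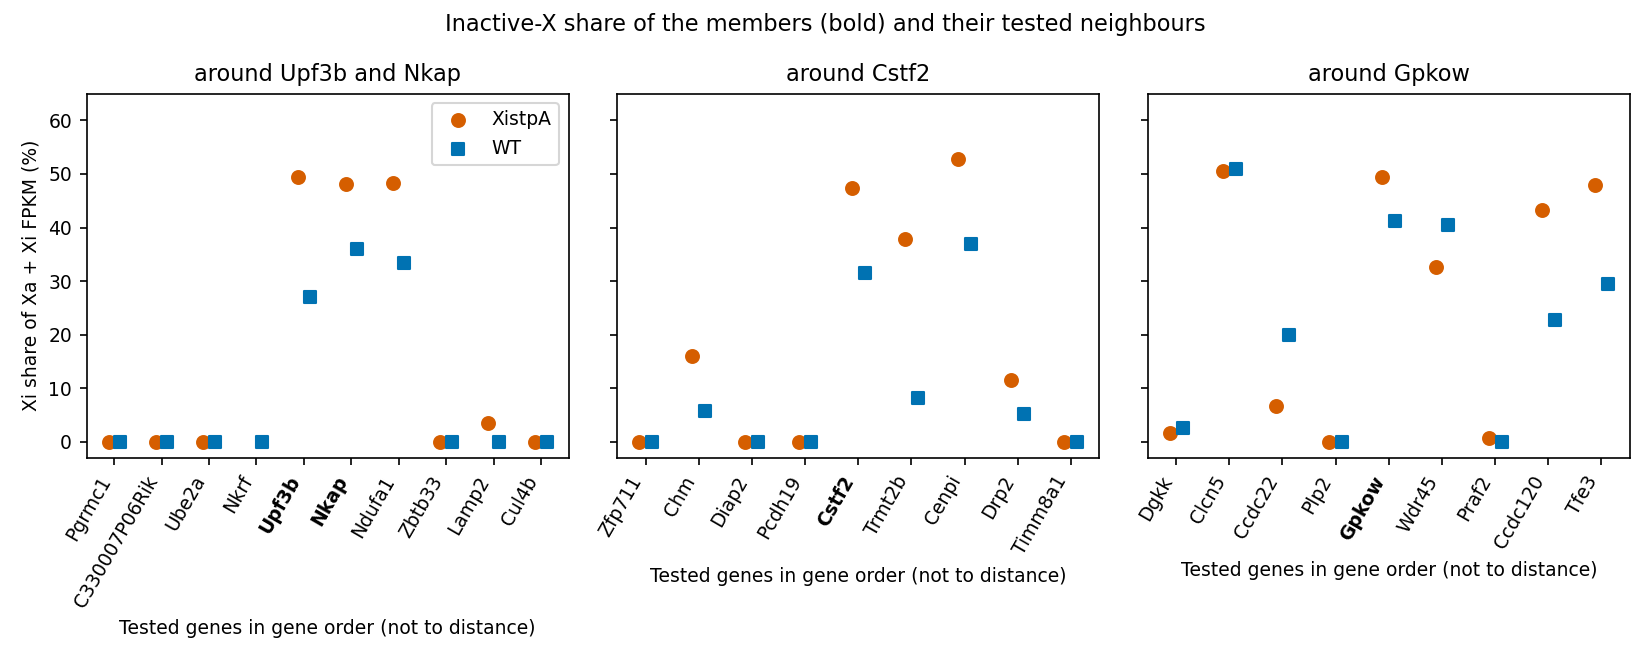
Xi share of Xa plus Xi FPKM (%, vertical axis) in XistpA (circles) and WT (squares) for the members, in bold, and the 4 nearest genes passing the filter on each side, in gene order and not to distance. Upf3b, Nkap and Ndufa1 stand together between genes at or near 0, and Nkrf has no XistpA point because it is listed at 0 on both alleles there.

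The other X-linked genes of messenger RNA splicing, 3' end formation, export and decay had no listed Xi expression in WT where they passed the filter. Of 24 such genes other than the members, 22 were listed in at least 1 table. The WT table listed 21 of them, and 13 passed the filter there. All 13 were listed at 0 on Xi in WT, as were 178 of all 270 genes. The members had been chosen for Xi expression, so the contrast with them is set by that choice. The 13 genes included the splicing regulators Rbm10, Rbmx and Pqbp1 and the paraspeckle protein gene Nono (81.9 FPKM on Xa). In XistpA 1 of the 13 rose on Xi, against 12.2% of all 270 genes. Rbm41, an RNA-binding protein gene, had 1.05 FPKM on Xi in XistpA, a share of 46.6%, and was listed at 0 in WT. In XRR_KO 2 of 13 rose on Xi, against 15.9% of all 270 genes. They were Rbm41 at 2.04 FPKM (share 61.0%) and the splicing regulator gene Hnrnph2 at 0.576 FPKM (share 2.48%), both listed at 0 in WT. The medians of these genes on Xi were 0 in every comparison, as over all genes passing the filter. In XRRa_KO, XRRb, XRRc and Ctcf none passed the rule on Xi.

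With dTAG in Rad21 degron cells 4 of 12 of these genes fell on Xa, Rbm10 (2.104 FPKM with dTAG and 6.65 FPKM with DMSO), Rbmx (4.22 and 12.4 FPKM), Pqbp1 (10.8 and 23.5 FPKM) and Nono (27.9 and 61.6 FPKM). Over all 247 genes 15% fell on Xa. The median Xa difference of these 12 was -0.66, against -0.26 over all 247 genes. At equal median Xa FPKM, Rbm10 and Rbmx were the genes among the 12 that fell and Nxt2 rose, while 19 of all 247 genes fell and 26 rose. On Xi, Rbm3, a cold-inducible RNA-binding protein gene, was listed at 0 with dTAG and at 0.567 FPKM with DMSO. In Ctcf degron cells Nxt2, a messenger RNA export factor gene, rose on Xa, with 2.05 FPKM with dTAG and 0.772 FPKM with DMSO, and did not pass the rule at equal median Xa FPKM. Over all 277 genes 5.42% rose on Xa there. Zrsr2, a splicing factor gene for the minor spliceosome, was listed under this name in the Ctcf table alone. It was named after its values were seen. On Xi it had 2.43 FPKM with dTAG and 2.86 FPKM with DMSO, shares of 24.8% and 30.4%.

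Copies and overlapping genes could blur the members' values. No transcript of another gene matched a member at 95% identity over 50% of its length. The closest were Cstf2t on chromosome 19 for Cstf2 (81.4% identity over 78.6% of the transcript), Gm5912 on chromosome 8 for Gpkow (86.2% over 100%) and Nkapl on chromosome 13 for Nkap (76.3% over 21.3%). On the opposite strand Akap14 overlaps Nkap and Nox1 overlaps Cstf2, and the libraries keep no strand. Nox1 was at most 0.170 FPKM on either allele in any group. Akap14 was 0.803 FPKM on Xi in XistpA, 0.678 FPKM in XRR_KO, 0.0941 FPKM in XRRa_KO and 0.0202 FPKM in WT, below Nkap by a factor of 7.80 or more in these groups, and its part in the Nkap values was not tested.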

How the data were processed

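Smart-seq2 libraries, a poly(A) method without strand, were sequenced from 32 XEN cell samples of 12 groups, per the labels' protocols. Trim Galore 0.6.4, HISAT2 2.2.0 and StringTie 2.1.1 with the mm9 build appear among the submitters' processing notes, and the allele assignment is described nowhere in the labels. From these the authors deposited 4 tables of FPKM for Xa and Xi, 1 merged column per group and allele, so the planned limma test could not be run. The Ctcf columns name the treatment only, and the Ctcf samples name no table, so they were matched by the table's name. FPKM holds no read total: among Xi values below 1 FPKM, no step common to a pair of columns was found, so depth is unknown.

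Genes with a mean Xa plus Xi FPKM of 1 or more in a table were kept. Differences are of log2(FPKM + 0.5), which understates changes of low genes, and "rose" and "fell" stand for a difference of at least 1. Levels were compared within a table and shares also across tables. Named genes were the members, their 4 nearest kept neighbours on each side, the 3 genes with the most similar share profile, and genes of an RNA processing list that passed the rule, with Zrsr2 named outside this rule. The members and lists were chosen with earlier results of these data known. RefSeq placed 999 of 1006 genes. Transcripts of GENCODE M21 were aligned with minimap2 2.31. The calls were tested on simulated data, which cannot give the error of these merged values. The alternatives tried were 2 other pseudocounts (0.1 and 1), dropping the filter or raising it to 5 FPKM, equal median Xa FPKM, centring on the median Xa difference, and share rules of 5% and 20%. Computation used pandas 2.3.3 and numpy 2.4.6 under Python 3.11.15, and plots matplotlib 3.10.9.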

Additional observations from a re-analysis of the deposited data

How the results depend on the processing

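Of 336 values of the members' differences under other settings, 330 stayed on their side of the rule and 6 passed it newly, all of them Cstf2 on Xi, and no called value changed sign. With a pseudocount of 0.1, Upf3b and Cstf2, 2 members in place of 1, passed the rule on Xi in XistpA (Cstf2 at 1.04) and in Rad21 dTAG (Cstf2 at -1.12), while over all genes 58 in place of 33 rose on Xi in XistpA, and in Rad21 18 rose and 16 fell in place of 10 and 8. With columns at equal median Xa FPKM, 2 passed it in XistpA (Cstf2 at 1.02) and 2 in XRR_KO (1.00), where 34 and 50 of 270 genes rose, in place of 33 and 43. Centred on the median Xa difference, 2 passed it in XistpA (1.01) and 2 in XRR_KO (1.04), where 34 and 54 of 270 genes rose. The main values of Cstf2 lie just under the rule, at 0.99, -0.98 and 0.85. For the members, a pseudocount of 1 changed no count. A member's difference does not depend on the filter. Dropping the filter or raising it to 5 FPKM could therefore move none, and those fixed values are among the 330. Pairs of member and group at a share of 5% or more and 20% or more stayed within 1.5 times the 47 at 10%. No paired analysis was possible because each deposited column already merges a group's samples, and leaving out a replicate was not possible for the same reason. Among the other RNA processing genes, the number rising on Xi in XRR_KO was 5 with a pseudocount of 0.1 and 1 with a pseudocount of 1, against 2. Over all 270 genes that number was 69 and 32, against 43. Without replicates or depth, no difference of a member can be set against its error, and the Rad21 values are coarse.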
